A study of Mus musculus with 16 samples.

Results

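The comparison described here set Nprl3-/- S3 erythroblasts against wild-type S3 erythroblasts, both from mouse foetal liver at embryonic day E13.5. The series holds 16 RNA-seq libraries, of which 6 belong to these groups by the genotype and stage in their titles. They are 2 homozygous libraries, from embryos 2 (female) and 9 (male), and 4 wild-type libraries, from embryos 0 and 8 (male) and 1 and 5 (female). The other 10 libraries hold S1 cells and heterozygous (Het) embryos, and were used for values and comparisons set beside those of S3, for the interaction of genotype with stage and in an alternative fit. The allele is a constitutive loss of the Nprl3 promoter that leaves the α-globin enhancers within the gene intact, on a C57BL/6J background, and homozygous embryos die before birth. Every cell of the embryo therefore lacked the promoter, and the erythroblasts were not compared with cells mutant in the erythroid lineage alone. The genotype was carried by 2 embryos, so that a value of the group rests on both alike.

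Nprl3 is a subunit of GATOR1, a complex on the lysosome that holds back the kinase mTORC1 when amino acids are scarce. mTORC1 drives protein, lipid and nucleotide synthesis and restrains autophagy, the process by which maturing red cells clear their organelles. S1 and S3 are an earlier and a later gate on the erythroid surface proteins Ter119 and CD71, and S3 holds the later, haemoglobin-filling erythroblasts. Foetal liver is the main site of red cell production at this age, where erythroblasts mature in contact with macrophages and among hepatoblasts.

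The S3 libraries held 20666044 to 37609502 counts in wild-type and 21375730 and 23008732 in Nprl3-/-. The labels name an embryonic stem cell line as the source, while the titles and the study's methods give sorted foetal liver. Of 10 embryonic stem cell markers, 8 were at 0 in all 6 libraries and the 10 summed to between 0.0275 and 1.37 CPM (the count of a gene scaled to the TMM-adjusted size of its library). By contrast, 10 erythroid markers summed to between 76200 and 99970 CPM. Xist and Y-linked reads fitted the sex in each title, though the study assigned sex from such reads. Nprl3 itself was at 118, 103, 105 and 156 CPM in wild-type embryos 0, 1, 5 and 8, the order used for every gene, and at 80.1 and 84.3 CPM in Nprl3-/- embryos 2 and 9. The groups did not overlap, and the log2 fold change was −0.55 (SE 0.19, Benjamini-Hochberg adjusted p = 0.381 in edgeR's quasi-likelihood test). With sex as a covariate the adjusted p was 0.0367 in edgeR and 0.00119 in DESeq2. The study describes polyadenylated transcripts that begin at the enhancers inside Nprl3 and make no protein. Counts per gene cannot separate these from the transcript of the deleted promoter. The study's droplet PCR assay, specific to that transcript, detected none in Nprl3-/- cells.

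Across the 11804 genes expressed highly enough to test, most differed little. The median size of the log2 fold change was 0.18, and 83.5% of genes lay within 0.5 of 0 in either direction. At an adjusted p under 0.05, the threshold used throughout, 54 genes rose (0.457% of those tested) and 12 fell (0.102%) in Nprl3-/-. The 2 Nprl3-/- libraries were both higher than all 4 wild-type libraries in 1137 genes (9.63%) and both lower in 1053 (8.92%), and all 66 genes past the threshold were among these. Of the 275 genes at least 2-fold higher, 49 passed, and of the 410 at least 2-fold lower, 11 passed. The smallest change that passed was a log2 fold change of 0.85, in Ampd2. Of the 1710 genes with a wild-type mean of 100 CPM or more, 4 passed. The genes that passed comprised 63 that encode proteins and 3 long non-coding RNAs (lncRNAs).

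The number of calls depended on the fit. With sex as a covariate edgeR gave 285 higher (2.41%) and 262 lower (2.22%) genes, and DESeq2 gave 298 (2.52%) and 365 (3.09%). Each of the 66 genes was among the calls of both of those fits. With 1 library left out the counts were lower, at 11 higher and 0 lower without wild-type embryo 0, 22 and 5 without embryo 1, 40 and 2 without embryo 5, 9 and 2 without embryo 8, 39 and 0 without Nprl3-/- embryo 2 and 41 and 1 without embryo 9. The genes that passed in all 6 of these fits numbered 6, namely Ndrg2, Slc7a11, Trib3, Pfkp, Trim12a and Slc7a3.

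**Figure D1:**
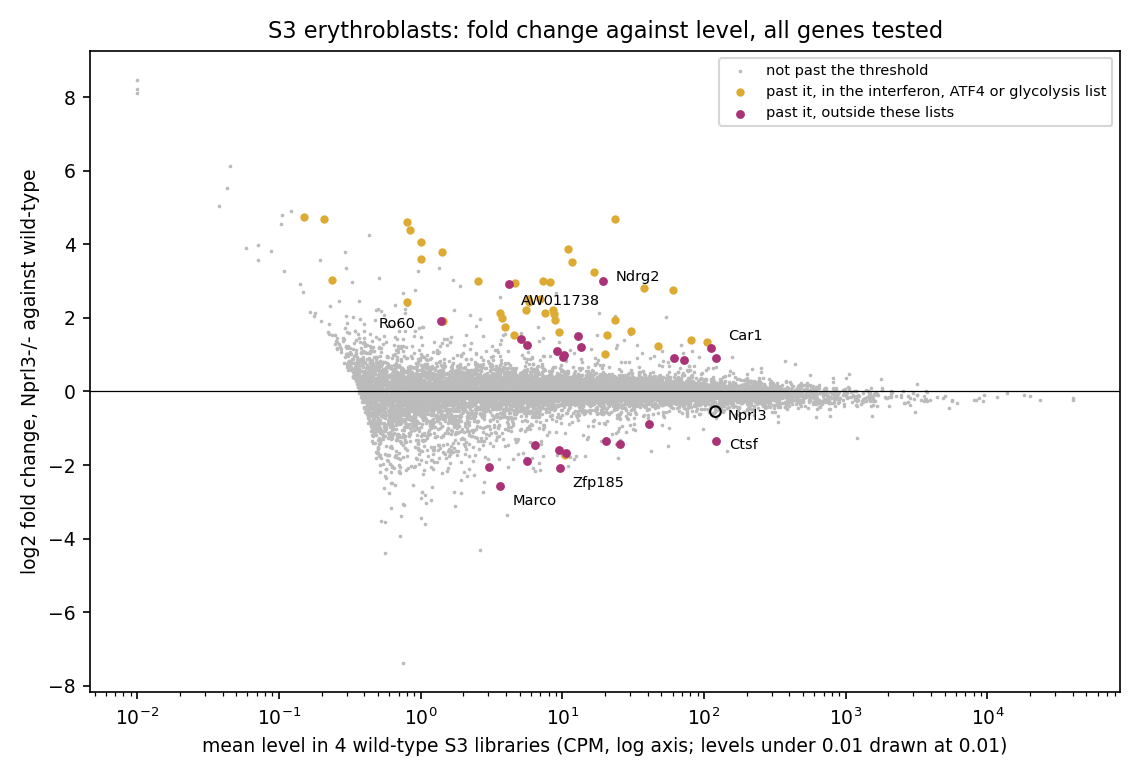
Each point is 1 of the 11804 genes tested at S3, with its mean level in the 4 wild-type libraries on a log axis (CPM) and its log2 fold change in Nprl3-/- on the other. The 66 genes past the threshold are coloured, yellow for those in the interferon, ATF4 or glycolysis list and purple for the other 25, and Nprl3 is circled at −0.55.

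Of the 54 genes that rose, 35 were in a list of interferon-stimulated genes, 4 were targets of the amino acid stress factor ATF4 (Slc7a11, Trib3, Slc7a3 and Cth) and 1 was glycolytic (Pfkp). Those lists aside, 11623 genes were tested, of which 14 rose (0.12%) and 11 fell (0.0946%). The 14 were Ndrg2, AW011738, Ro60, Nacad, Mvp, N4bp2l1, Cited2, Car1, Nampt, S100a13, Nab1, Tor1aip2, Pck2 and Ampd2. Their log2 fold changes ran from 0.85 to 2.99 with a median of 1.19, against a median of 2.51 for the 35 interferon-stimulated genes. The 11 that fell were Marco, Zfp185, Ctsh, Fcna, Lyz2, Tns1, Lpl, Gm3287, 2610027K06Rik, Ctsf and Ppdpf.

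The sequence before the start of the canonical transcript (GENCODE M39, GRCm39) is shown for Nprl3, whose promoter the allele lacks, and for genes the results below turn on. The exact bounds of the deletion were not given in the sources used here. Windows cover 250 bases, 5′ to 3′ on the strand of the gene, and end at the base before the start. They are chr11:32217708-32217957 (minus strand) for Nprl3, chr14:52151199-52151448 (minus) for Ndrg2, chr3:14843520-14843769 (minus) for Car1, chr14:55777473-55777722 (plus) for Pck2, chr10:17598716-17598965 (plus) for Cited2, chr1:52539839-52540088 (minus) for Nab1 and chr4:156285304-156285553 (minus) for Isg15, an interferon-stimulated gene shown for contrast. Capitals mark matches, on either strand, to a pair of GAAA separated by any 2 bases (the core of the interferon-stimulated response element, ISRE), TGATGNAA (the core of the C/EBP-ATF element) or CACGTG (the E-box). Where matches to 1 motif overlap, they form 1 run of capitals.
Nprl3: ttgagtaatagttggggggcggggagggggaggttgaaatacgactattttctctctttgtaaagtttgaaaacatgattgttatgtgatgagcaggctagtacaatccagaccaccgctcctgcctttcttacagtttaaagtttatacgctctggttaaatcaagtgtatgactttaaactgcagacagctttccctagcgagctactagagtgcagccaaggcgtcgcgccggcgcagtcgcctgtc
Ndrg2: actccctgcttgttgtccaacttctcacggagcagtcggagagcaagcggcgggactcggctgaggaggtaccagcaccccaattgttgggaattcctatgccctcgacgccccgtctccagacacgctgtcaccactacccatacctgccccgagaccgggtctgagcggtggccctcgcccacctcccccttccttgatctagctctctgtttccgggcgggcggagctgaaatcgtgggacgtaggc
Car1: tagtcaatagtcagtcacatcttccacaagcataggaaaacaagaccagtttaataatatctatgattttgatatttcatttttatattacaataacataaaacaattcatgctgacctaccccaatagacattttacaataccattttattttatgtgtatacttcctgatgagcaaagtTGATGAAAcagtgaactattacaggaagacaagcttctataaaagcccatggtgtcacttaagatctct
Pck2: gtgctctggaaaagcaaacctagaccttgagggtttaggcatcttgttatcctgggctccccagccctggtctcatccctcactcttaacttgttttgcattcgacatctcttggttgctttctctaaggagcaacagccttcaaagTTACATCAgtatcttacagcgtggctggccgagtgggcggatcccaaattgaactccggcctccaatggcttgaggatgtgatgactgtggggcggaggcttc
Cited2: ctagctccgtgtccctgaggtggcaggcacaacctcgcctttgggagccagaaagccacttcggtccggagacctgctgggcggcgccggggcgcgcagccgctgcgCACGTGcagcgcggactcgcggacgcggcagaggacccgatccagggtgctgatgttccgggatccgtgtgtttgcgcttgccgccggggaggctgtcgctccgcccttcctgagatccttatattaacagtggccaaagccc
Nab1: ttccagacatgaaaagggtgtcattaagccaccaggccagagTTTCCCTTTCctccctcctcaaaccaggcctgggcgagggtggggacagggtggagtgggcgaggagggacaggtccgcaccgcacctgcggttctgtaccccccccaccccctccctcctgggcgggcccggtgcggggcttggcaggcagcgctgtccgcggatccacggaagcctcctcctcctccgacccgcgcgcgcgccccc
Isg15: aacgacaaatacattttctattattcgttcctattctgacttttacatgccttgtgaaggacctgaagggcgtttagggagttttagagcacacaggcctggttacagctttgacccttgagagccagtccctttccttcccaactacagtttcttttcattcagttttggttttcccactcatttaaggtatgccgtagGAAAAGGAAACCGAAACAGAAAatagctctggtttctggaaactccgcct

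Over the 11767 tested genes with such a window, the ISRE core was found in 3.01%, TGATGNAA in 2.35% and CACGTG in 7.69%. The ISRE core was in the window of 10 of the 35 interferon-stimulated genes that rose (28.6%), and Isg15 held 3 overlapping matches. It was in 1 of the 14 other genes that rose, Nab1, with its first base at position -208 from the start. TGATGNAA was in 2 of the 14, Car1 (from position -69) and Pck2 (from position -103), and CACGTG in 2, Cited2 (from position -143) and Ampd2. None of the 3 motifs was in the window of any of the 12 genes that fell (0.0% for each). A match is a description of the letters, and none was tested as a binding site.

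Ndrg2, a member of the N-myc downstream-regulated family, had the smallest p of all genes tested. It was at 21.2, 17.1, 19.1 and 20.3 CPM in the wild-type libraries and at 164 and 144 CPM in the Nprl3-/- libraries. The log2 fold change was 2.99 (SE 0.14, edgeR adjusted p = 1.14e-04). Each Nprl3-/- library thus lay far above a tight wild-type range. Among the 25 genes outside the lists, it was the one that passed with every library left out in turn. The gene lies on chromosome 14 of mm39 from 52142728 to 52151615.

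A pair of transcriptional regulators rose with it. Cited2, a CBP and p300 partner that restrains hypoxia-inducible factor, was at 12.8, 13.99, 11.6 and 16.1 CPM in wild-type and at 26.2 and 36.2 CPM in Nprl3-/-. Its log2 fold change was 1.20 (SE 0.18, edgeR adjusted p = 0.0385), and the highest wild-type library stayed below both Nprl3-/- libraries. Nab1, a corepressor of the EGR family of transcription factors, had a log2 fold change of 0.93 (SE 0.15, edgeR adjusted p = 0.0458).

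Several of the rises were in enzymes. Car1, a carbonic anhydrase of red cells that interconverts carbon dioxide and bicarbonate, was at 106, 135, 94.7 and 115 CPM in wild-type and at 243 and 268 CPM in Nprl3-/-. The log2 fold change was 1.18 (SE 0.16, edgeR adjusted p = 0.0242), with the groups far apart. Pck2, the mitochondrial phosphoenolpyruvate carboxykinase, was at 62.8, 53.4, 69.4 and 59.8 CPM in wild-type and at 109 and 120 CPM in Nprl3-/-, a log2 fold change of 0.90 (SE 0.14, edgeR adjusted p = 0.0386). Pck2 lies 52.3 kb from Irf9, which also rose. Ampd2, which deaminates AMP to IMP, was at 76.1, 63.9, 76.6 and 71.3 CPM in wild-type and at 132 and 128 CPM in Nprl3-/-, a log2 fold change of 0.85 (SE 0.13, edgeR adjusted p = 0.0348). Nampt, the rate-limiting enzyme of NAD salvage, was at 9.11, 9.13, 9.52 and 8.69 CPM in wild-type and at 22.6 and 16.2 CPM in Nprl3-/-. Its log2 fold change was 1.09 (SE 0.17, edgeR adjusted p = 0.0386). In all 4 enzymes the groups were apart, with both Nprl3-/- libraries on the same side.

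Of the proteins of ribonucleoprotein particles, Mvp, the main protein of the vault particle, was at 5.71, 4.99, 5.64 and 4.11 CPM in wild-type and at 15.6 and 11.9 CPM in Nprl3-/- (log2 fold change 1.42, SE 0.20, edgeR adjusted p = 0.0285). Ro60, which binds Y RNAs and misfolded small RNAs, had a log2 fold change of 1.91 (SE 0.31, edgeR adjusted p = 0.0458), from wild-type levels between 1.02 and 1.76 CPM. Tor1aip2, a membrane partner of the torsin ATPases, was at 121, 109, 123 and 130 CPM in wild-type and at 252 and 199 CPM in Nprl3-/- (log2 fold change 0.90, SE 0.14, edgeR adjusted p = 0.0385). For these genes too the wild-type maximum lay below the Nprl3-/- minimum. Nacad, which carries the domain of the nascent polypeptide-associated complex, was at 10.0, 17.4, 13.8 and 10.5 CPM in wild-type and at 37.7 and 35.8 CPM in Nprl3-/- (log2 fold change 1.502, SE 0.22, edgeR adjusted p = 0.0335). N4bp2l1 and S100a13, a calcium-binding protein, had log2 fold changes of 1.26 (SE 0.20) and 0.98 (SE 0.16).

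Some of these genes overlap another on the opposite strand, and the counting did not use strand. The log2 fold changes of the partners were 0.08 for Ccm2 (SE 0.17), which overlaps Nacad, and −0.06 for Brca2 (SE 0.14), which overlaps N4bp2l1. They were 0.25 for Glrx2 (SE 0.21), which overlaps Ro60, 0.53 for Tor1aip1 (SE 0.18), which overlaps Tor1aip2, and 0.29 for S100a1 (SE 0.31), which overlaps S100a13. None of the 5 partners passed the threshold.

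AW011738 is a lncRNA on the plus strand of chromosome 4, from 156287727 to 156295020. It was at 1.73, 3.64, 4.596 and 6.79 CPM in wild-type and at 26.6 and 35.5 CPM in Nprl3-/-, a log2 fold change of 2.91 (SE 0.40, edgeR adjusted p = 0.0242). Isg15, an interferon-stimulated ubiquitin-like protein, is read on the minus strand, and the starts of the genes are 2.35 kb apart and point away from each other. Isg15 was at 15.1, 17.7, 45.2 and 15.7 CPM in wild-type and at 846 and 372 CPM in Nprl3-/-. The order of the libraries was not the same in both genes. Within wild-type, embryo 5 was highest for Isg15 and embryo 8 for AW011738, and within Nprl3-/- embryo 2 was higher for Isg15 and embryo 9 for AW011738.

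**Figure D2:**
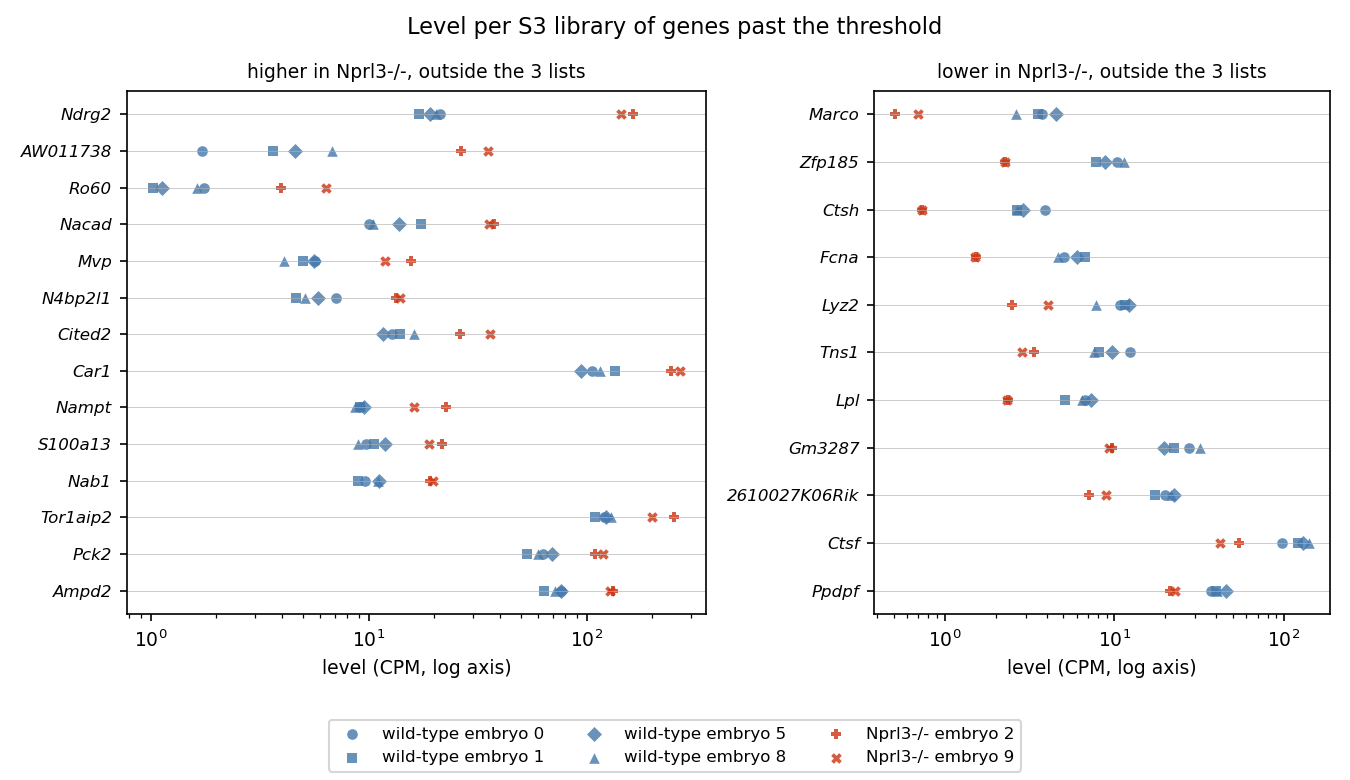
Level in each S3 library (CPM, log axis) of the 14 genes that rose outside the interferon, ATF4 and glycolysis lists and of the 11 that fell outside them. Blue symbols are the 4 wild-type embryos and red symbols the 2 Nprl3-/- embryos, and in every gene shown the 2 colours do not overlap.

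The genes that fell included several that erythroblasts are not known for. Marco, a scavenger receptor of macrophages, was at 3.74, 3.57, 4.54 and 2.63 CPM in wild-type and at 0.509 and 0.693 CPM in Nprl3-/-, a log2 fold change of −2.58 (SE 0.35, edgeR adjusted p = 0.0242). Fcna, the lectin ficolin A of macrophages, was at 5.07, 6.71, 5.999 and 4.69 CPM in wild-type and at 1.53 and 1.51 CPM in Nprl3-/-, a log2 fold change of −1.89 (SE 0.26, edgeR adjusted p = 0.0242). Lyz2, the lysozyme of myeloid cells, was at 10.8, 11.6, 12.1 and 7.79 CPM in wild-type and at 2.50 and 4.08 CPM in Nprl3-/- (log2 fold change −1.69, SE 0.28, edgeR adjusted p = 0.0458). These 3 genes belong to a list of 21 macrophage markers. The list summed to 56.9 to 109 CPM in wild-type and to 40.2 and 27.8 CPM in Nprl3-/-, without overlap (exact permutation test, two-sided p = 0.133, the smallest that 2 libraries against 4 allow). Of the 21, 19 had a lower mean in Nprl3-/-, 1 a higher mean, and Vsig4 was at 0 in all 6 libraries. All 17 that could be tested had a log2 fold change below 0, with a median of −1.34 against 0.01 over all genes tested, and with sex as a covariate 8 passed in edgeR (2.22% of all genes tested were called lower there) and 9 in DESeq2 (3.09%). Fewer macrophages in the sort and less RNA per macrophage cannot be told apart in such libraries, and the same holds for every other cell type. The study describes the sort by Ter119 and CD71, while its antibody panel for foetal liver also lists CD11b, Gr1, NK1.1, CD90.2 and B220, and whether these were used to leave cells out of the sort for RNA is not given in the sources used here.

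A pair of lysosomal cathepsins also fell. Ctsf was at 96.7, 120, 130 and 140 CPM in wild-type and at 54.4 and 42.2 CPM in Nprl3-/-, a log2 fold change of −1.33 (SE 0.19, edgeR adjusted p = 0.0326). Ctsh was at 3.92, 2.68, 2.92 and 2.69 CPM in wild-type and at 0.741 and 0.734 CPM in Nprl3-/-, a log2 fold change of −2.04 (SE 0.32, edgeR adjusted p = 0.0385). They were 2 of the 50 tested members of a list of lysosomal genes and V-ATPase subunits, against 0.102% of all genes tested that fell, and the other 48 did not pass. Lpl, the lipoprotein lipase, was at 6.71, 5.09, 7.32 and 6.42 CPM in wild-type and at 2.36 and 2.32 CPM in Nprl3-/- (log2 fold change −1.45, SE 0.23, edgeR adjusted p = 0.0428). Whether the macrophage markers that moved beside Ctsh and Lpl had a part in these falls was not tested.

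Of the falls in genes of the cytoskeleton, Zfp185, an actin-associated LIM domain protein, had the smallest p. It was at 10.4, 7.84, 8.78 and 11.5 CPM in wild-type and at 2.27 and 2.28 CPM in Nprl3-/-, a log2 fold change of −2.07 (SE 0.24, edgeR adjusted p = 0.0153). Tns1, which links actin to integrins, had a log2 fold change of −1.60 (SE 0.26, edgeR adjusted p = 0.0428). Apart from these, Ppdpf had a log2 fold change of −0.88 (SE 0.15, edgeR adjusted p = 0.0458). The falls also included lncRNAs. Gm3287 was at 27.7, 22.6, 19.6 and 32.0 CPM in wild-type and at 9.72 and 9.25 CPM in Nprl3-/- (log2 fold change −1.42, SE 0.22, edgeR adjusted p = 0.0386). 2610027K06Rik was at 19.9, 17.3, 22.3 and 21.5 CPM in wild-type and at 7.08 and 8.89 CPM in Nprl3-/- (log2 fold change −1.34, SE 0.18, edgeR adjusted p = 0.0242). It overlaps Bcas3 on the other strand, whose log2 fold change was −0.11 (SE 0.17).

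Hepatoblast markers varied widely within wild-type. The 15 markers summed to 724, 221, 166 and 457 CPM in wild-type and to 77.2 and 199 CPM in Nprl3-/-, which overlapped (exact permutation test, two-sided p = 0.267). All 15 had a log2 fold change below 0, with a median of −1.49, and 6 were below every wild-type library in both Nprl3-/- libraries (8.92% of all genes tested were). None passed the threshold in the edgeR test, while 12 passed in edgeR with sex (2.22% of all genes tested) and 13 in DESeq2 with sex (3.09%). The smallest p was that of Apoa2, an apolipoprotein, at 35.7, 22.8, 18.3 and 25.9 CPM against 7.27 and 13.3 CPM. Its log2 fold change was −1.32 (SE 0.32, edgeR adjusted p = 0.177).

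Other marker lists were set apart by 1 Nprl3-/- library. Endothelial and stromal markers summed to 6.22 to 24.9 CPM in wild-type and to 6.16 CPM in Nprl3-/- embryo 2, but to 53.2 CPM in embryo 9. Col3a1, a collagen of stromal cells, was between 0.193 and 0.577 CPM in wild-type, at 0.648 CPM in embryo 2 and at 15.8 CPM in embryo 9. Without embryo 9 the median log2 fold change of the list turned from 1.29 to −1.999. The 12 neutrophil and granulocyte precursor markers summed to 0.798 to 3.43 CPM in wild-type and to 1.16 and 9.87 CPM in Nprl3-/-. Ngp, a granule protein of neutrophils, was at 0 in the other 5 libraries and at 2.65 CPM in embryo 9. Markers of mast cells, basophils and eosinophils summed to 0.0826 to 1.75 CPM in wild-type and to 0.602 and 5.54 CPM, and those of megakaryocytes to 41.8 to 75.9 CPM and to 46.6 and 94.5 CPM. In each of these 4 lists Nprl3-/- embryo 9 was the highest library and embryo 2 lay within or just below the wild-type range. Monocyte and dendritic markers (29.5 to 48.4 CPM in wild-type, 46.1 and 35.3 CPM in Nprl3-/-) and lymphoid markers (0.105 to 0.790 CPM, 0.139 and 0.897 CPM) overlapped between the groups.

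**Figure D3:**
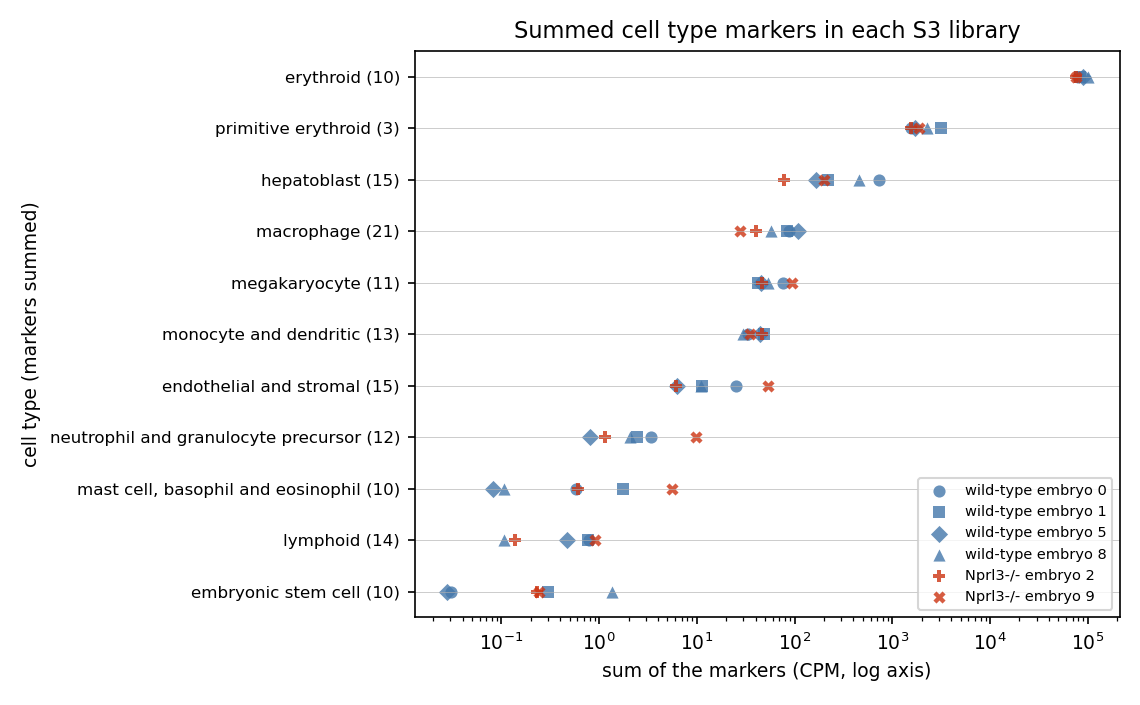
Sum over the markers of each cell type in each S3 library (CPM, log axis), with the number of markers in brackets. Macrophage markers are lower in both Nprl3-/- libraries (40.2 and 27.8 CPM) than in every wild-type library, while endothelial and stromal, neutrophil, mast cell and megakaryocyte markers are highest in Nprl3-/- embryo 9.

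The summed erythroid markers and the globin share of counts were lower in Nprl3-/- than in any wild-type library. The 10 erythroid markers summed to 80480, 83950, 89370 and 99970 CPM in wild-type and to 76200 and 76530 CPM in Nprl3-/-, without overlap (exact permutation test, two-sided p = 0.133). The list includes the globins Hba-a1, at a wild-type mean of 39860 CPM, and Hbb-bt, so the sum and the globin share are not separate. Both Nprl3-/- libraries were below every wild-type library for 1 of the 10 markers (8.92% of all genes tested). As a median over the 10 of the log2 distance from the wild-type mean, the groups overlapped. Wild-type embryo 0 was at −0.147 and Nprl3-/- embryo 9 at −0.143. Globin genes took 10.8% to 11.8% of all counts in wild-type and 10.0% and 10.6% in Nprl3-/-. Of the 10 globin genes tested, 8 had a log2 fold change below 0, with a median of −0.24, and none passed the threshold. Both Nprl3-/- libraries were below every wild-type library for 4 of the 10 (8.92% of all genes tested). With sex as a covariate 2 of the 10 passed as lower in edgeR (2.22% of all genes tested) and 2 in DESeq2 (3.09%). Hbb-bh1, a globin of primitive red cells, was at 988, 1331, 997 and 1476 CPM in wild-type and at 395 and 599 CPM in Nprl3-/- (log2 fold change −1.27, SE 0.24, edgeR adjusted p = 0.0747). The other primitive globins did not follow it, with log2 fold changes of 0.56 for Hba-x (SE 0.41) and 0.26 for Hbb-y (SE 0.42). Scaling without the globin genes left 54 genes higher and 12 lower.

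The enzymes of haem synthesis gave 14 of 16 log2 fold changes below 0, with a median of −0.11 and none apart between the groups. Alas2, the rate-limiting enzyme of haem synthesis in red cells, had a log2 fold change of −0.24 (SE 0.18), within the spread between embryos. Of 21 genes of iron handling, 16 were below 0, with a median of −0.11. Hmox1, which breaks haem down and is also a macrophage marker, was at 19.7, 15.3, 24.9 and 14.6 CPM in wild-type and at 6.90 and 7.62 CPM in Nprl3-/- (log2 fold change −1.36, SE 0.25, edgeR adjusted p = 0.0678). The groups did not overlap, but the call missed the threshold. Slc40a1, the iron exporter ferroportin, had a log2 fold change of −0.30 (SE 0.14).

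Among 25 erythroid regulators, 21 lay below 0, with a median of −0.11 and none past the threshold. Hes6, a bHLH transcription factor, had the smallest p, at 3.95, 4.79, 3.47 and 3.63 CPM in wild-type and 8.38 and 5.26 CPM in Nprl3-/- (log2 fold change 0.78, SE 0.25, edgeR adjusted p = 0.328). All 26 genes of the red cell membrane and its skeleton lay below 0, with a median of −0.26, and in 7 of them (26.9%, against 8.92% of all genes tested) both Nprl3-/- libraries were below all wild-type libraries. Aqp1, the water channel, had a log2 fold change of −0.74 (SE 0.21, edgeR adjusted p = 0.263). As a score, the median over the list of the log2 distance of a library from the wild-type mean was 0.07, −0.24, −0.02 and 0.32 in wild-type and −0.40 and −0.14 in Nprl3-/-. The groups overlapped on this score. None of the 26 passed, while 2 did in edgeR with sex (2.22% of all genes tested) and 6 in DESeq2 with sex (3.09%). The 18 genes of enucleation and nuclear condensation were split evenly, with 9 on each side of 0 and a median of 0.01.

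None of the 40 genes of mitosis passed the test, and their values leaned to the lower side. All 40 had a log2 fold change below 0, with a median of −0.24, and 17 (42.5%, against 8.92% of all genes tested) were below every wild-type library in both Nprl3-/- libraries. With sex as a covariate 3 passed in edgeR (2.22% of all genes tested) and 11 in DESeq2 (3.09%). Cenpf, a kinetochore protein, was at 345, 303, 317 and 364 CPM in wild-type and at 203 and 217 CPM in Nprl3-/- (log2 fold change −0.66, SE 0.13, edgeR adjusted p = 0.0904). Kif23, a motor of cytokinesis, had a log2 fold change of −0.49 (SE 0.19), and Cenpe, a motor of the kinetochore, one of −0.36 (SE 0.14). The score of the list was 0.06, −0.14, −0.01 and 0.13 in wild-type and −0.29 and −0.19 in Nprl3-/-, so the groups were apart on it. The 44 genes of DNA replication had a median of −0.02, with 27 below and 17 above 0. Of 23 cyclins and CDK inhibitors, 14 were below 0. Cdkn2c, the inhibitor p18, was at 91.5, 83.5, 93.6 and 100 CPM in wild-type and at 59.4 and 62.0 CPM in Nprl3-/- (log2 fold change −0.60, SE 0.13, edgeR adjusted p = 0.128). Ccnd2, a G1 cyclin, had a log2 fold change of 1.14 (SE 0.27, edgeR adjusted p = 0.168) in the other direction.

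**Figure D4:**
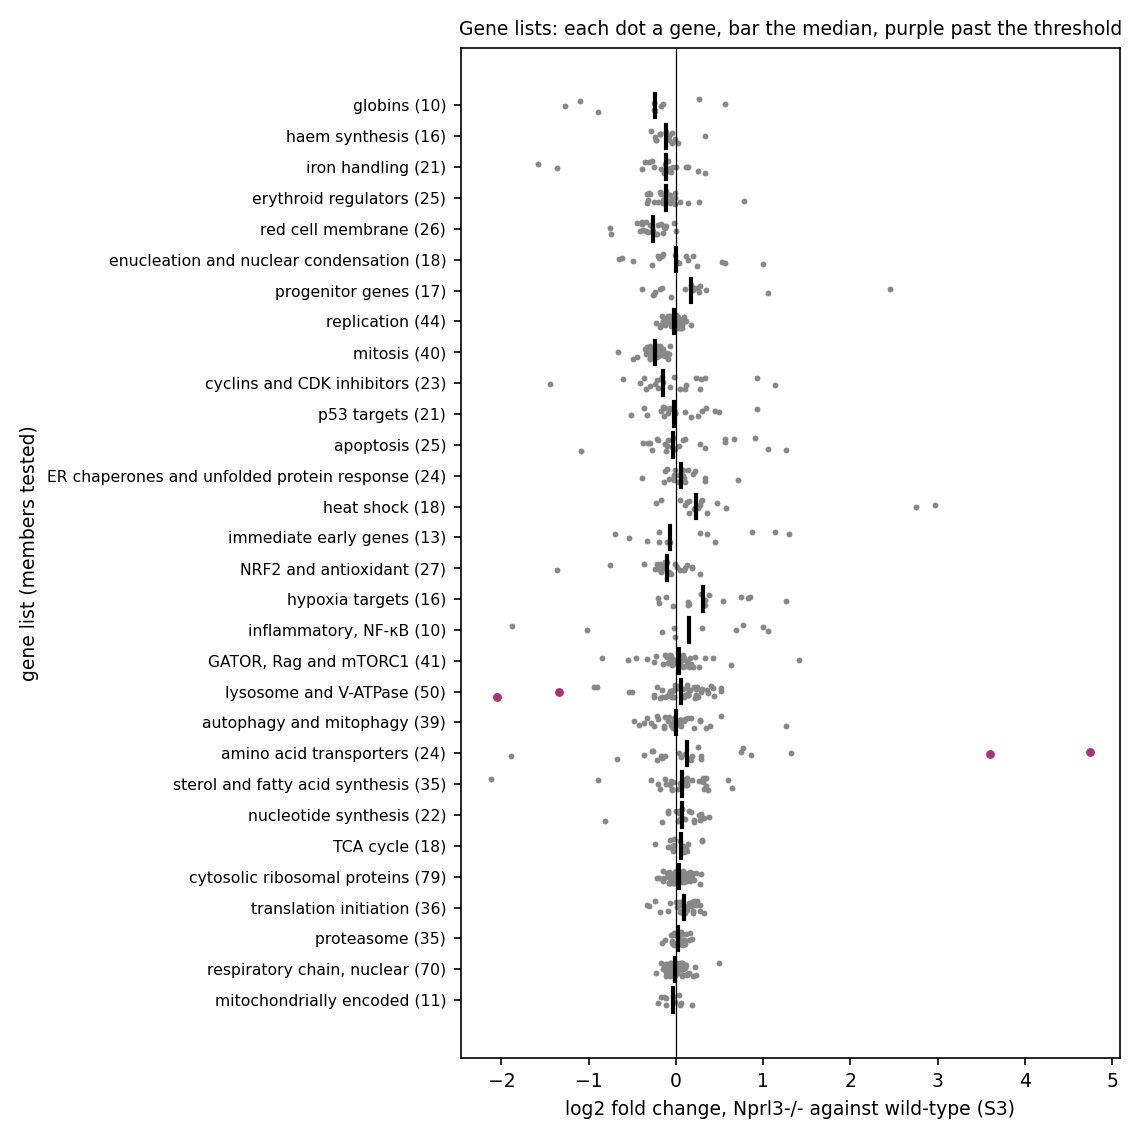
Log2 fold change in Nprl3-/- at S3 of each tested member of 30 gene lists, with the list's median as a bar. All members of the red cell membrane and mitosis lists lie below 0 (medians −0.26 and −0.24), the medians of the hypoxia and heat shock lists are 0.31 and 0.24, and the 4 members past the threshold are Ctsf and Ctsh (lysosome) and Slc7a11 and Slc7a3 (amino acid transporters).

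The other stress lists did not share a direction. Of 18 heat shock genes, 16 lay above 0, with a median of 0.24, and 8 (44.4%, against 9.63% of all genes tested) were above every wild-type library. The heat shock score was between −0.12 and 0.20 in wild-type and at 0.25 and 0.15 in Nprl3-/-, so the groups overlapped on it. Hspa1a, an inducible HSP70, was at 0.182, 0.529, 0.495 and 0.105 CPM in wild-type and at 2.22 and 3.18 CPM in Nprl3-/- (log2 fold change 2.97, SE 0.52, edgeR adjusted p = 0.0579). Its near-identical copy Hspa1b had a log2 fold change of 2.75 (SE 0.52, edgeR adjusted p = 0.0746). Reads shared by the copies were left out of the counts, and neither gene passed. Hspa9, the mitochondrial HSP70, had a log2 fold change of 0.58 (SE 0.18). With sex as a covariate 4 of the 18 passed in edgeR and 5 in DESeq2 (2.41% and 2.52% of all genes tested). Of 16 hypoxia targets, 12 lay above 0, with a median of 0.31. Both Nprl3-/- libraries were above every wild-type library for 7 of them (43.75%) and below for 1 (9.63% and 8.92% of all genes tested). The hypoxia score was between −0.06 and 0.05 in wild-type, at 0.44 in embryo 2 and at 0.12 in embryo 9. Bnip3, a mitophagy receptor, was at 26.8, 33.5, 48.0 and 25.3 CPM in wild-type and at 103 and 57.4 CPM in Nprl3-/- (log2 fold change 1.26, SE 0.30, edgeR adjusted p = 0.157). P4ha1, a collagen prolyl hydroxylase, had a log2 fold change of 0.82 (SE 0.18, edgeR adjusted p = 0.119).

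No member of the remaining stress lists passed the threshold. Of 13 immediate early genes, 5 were above every wild-type library and 1 below (9.63% and 8.92% of all genes tested), with a median of −0.07. Zfp36, an mRNA-destabilising protein, was at 3.22, 3.14, 3.17 and 4.37 CPM in wild-type and at 6.80 and 8.36 CPM in Nprl3-/- (log2 fold change 1.13, SE 0.22, edgeR adjusted p = 0.0828). The 21 p53 targets had a median of −0.02, and Cdkn1a, the inhibitor p21, had a log2 fold change of 0.93 (SE 0.32, edgeR adjusted p = 0.397). The medians were 0.06 over 24 genes of the unfolded protein response, −0.03 over 25 genes of apoptosis and −0.10 over 27 NRF2 and antioxidant genes. The 10 inflammatory genes of the NF-κB list had a median of 0.15, with 5 on each side of 0. Both Nprl3-/- libraries were above every wild-type library for 4 of these 10 and for 4 of the 21 p53 targets (9.63% of all genes tested), and below for 5 of the 27 NRF2 and antioxidant genes (8.92%). With sex as a covariate 4 of the 25 genes of apoptosis and 2 of the 13 immediate early genes passed as higher in edgeR (2.41% of all genes tested), and 5 and 2 did in DESeq2 (2.52%).

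In the pathway of Nprl3 itself, 41 genes of GATOR, the Rag GTPases and mTORC1 had a median of 0.04, with 23 above and 18 below 0 and none past the threshold. Eif4ebp1, which encodes the translation repressor 4E-BP1 that mTORC1 phosphorylates, was at 25.6, 31.7, 36.3 and 15.8 CPM in wild-type and at 80.1 and 65.5 CPM in Nprl3-/- (log2 fold change 1.41, SE 0.28, edgeR adjusted p = 0.0898). Rptor, the subunit that defines mTORC1, was at 22.8, 14.3, 16.1 and 26.1 CPM in wild-type and at 10.4 and 11.5 CPM in Nprl3-/- (log2 fold change −0.85, SE 0.26, edgeR adjusted p = 0.304). Both genes were apart between the groups, in opposite directions. Sesn2, a leucine sensor upstream of GATOR, had a log2 fold change of 0.63 (SE 0.19, edgeR adjusted p = 0.305). Eif4ebp1 and Sesn2 are also in the list of ATF4 targets. With sex as a covariate these 2 passed as higher in edgeR (2.41% of all genes tested) and in DESeq2 (2.52%). Rptor and Nprl3 were the 2 that passed as lower in those fits (2.22% and 3.09%).

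The 50 lysosomal and V-ATPase genes had a median of 0.06, with 6 above and 6 below every wild-type library in both Nprl3-/- libraries, or 12% each way, close to the 9.63% and 8.92% of all genes tested. Atp6v1a, a catalytic subunit of the proton pump, had a log2 fold change of 0.42 (SE 0.14, edgeR adjusted p = 0.350). The 39 genes of autophagy and mitophagy had a median of 0.01, with 20 above and 19 below 0. Pik3c3, the lipid kinase VPS34, had a log2 fold change of 0.52 (SE 0.17) and Tax1bp1, an autophagy receptor, one of −0.33 (SE 0.15), and neither passed. Of 24 amino acid transporters, 2 rose, the cystine carrier Slc7a11 and the cationic carrier Slc7a3, both also in the ATF4 list (0.457% of all genes tested rose). The 24 had a median of 0.12, and Slc6a6, the taurine carrier, had a log2 fold change of 0.87 (SE 0.27, edgeR adjusted p = 0.318).

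Lists of biosynthetic genes had small median changes, leaving aside the glycolysis and ATF4 lists. The median was 0.07 over 35 genes of sterol and fatty acid synthesis and 0.07 over 22 of nucleotide synthesis. Of these, 23 and 18 were above 0 (51.0% of all genes tested). Both Nprl3-/- libraries were above every wild-type library for 6 of the 35 sterol genes and below for 2 (9.63% and 8.92% of all genes tested). Among the sterol genes Scd1, a fatty acid desaturase, had a log2 fold change of −0.89 (SE 0.29) and Msmo1, of cholesterol synthesis, one of 0.37 (SE 0.13), and neither passed. Cytosolic ribosomal proteins had a median of 0.03 over 79 genes, of which 53 were above 0, and translation initiation factors one of 0.09 over 36 genes, of which 30 were above 0. The 35 proteasome subunits had a median of 0.03. In mitochondria, the median was −0.01 over 70 nuclear genes of the respiratory chain and −0.04 over the 11 genes tested of the mitochondrial genome. Mitochondrially encoded transcripts took 0.284% to 0.341% of counts in wild-type and 0.284% and 0.358% in Nprl3-/-, which overlapped.

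Around Nprl3, 39 other genes were tested within 5 Mb of its start on chromosome 11. None passed the threshold, and 6 had an unadjusted p under 0.05 (4.21% of all genes tested were higher and 4.31% lower at that p). The groups did not overlap in 9 of them, with 5 higher and 4 lower in Nprl3-/-, or 23.1% of the 39 against 18.6% of all genes tested. The smallest p was that of Pnpt1, the mitochondrial polynucleotide phosphorylase, which is also in the interferon list and whose start lies 3137 kb from that of Nprl3. Pnpt1 was at 45.6, 42.8, 41.7 and 36.5 CPM in wild-type and at 89.9 and 66.9 CPM in Nprl3-/- (log2 fold change 0.91, SE 0.16, edgeR adjusted p = 0.0588). Hbq1a, a theta-globin gene on the other side of Nprl3 beyond the α-globin genes, was at 13.49, 8.66, 10.7 and 11.8 CPM in wild-type and at 6.30 and 5.75 CPM in Nprl3-/- (log2 fold change −0.89, SE 0.22, edgeR adjusted p = 0.172). Hbq1b, its copy within the cluster, had a log2 fold change of −0.14 (SE 0.13).

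**Figure D5:**
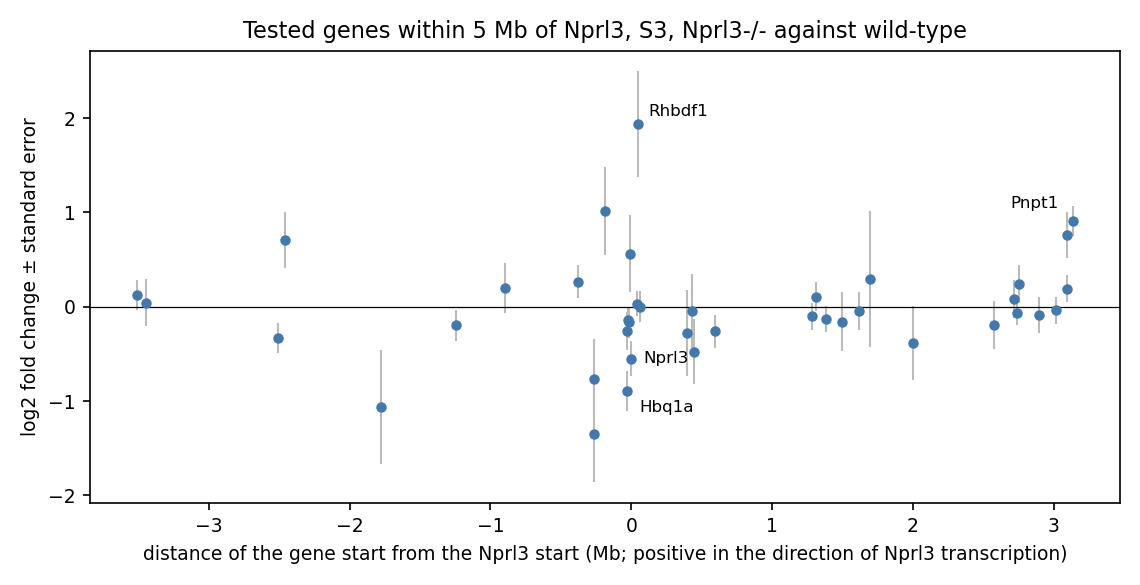
Log2 fold change in Nprl3-/- at S3 (± standard error) of the 40 tested genes within 5 Mb of the Nprl3 start, against the distance of the gene start in Mb, positive in the direction in which Nprl3 is read. The 3 labelled genes other than Nprl3 are those of smallest p (Pnpt1 at 0.91, Hbq1a at −0.89 and Rhbdf1 at 1.94), and none passed the threshold.

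The distances of the Nprl3-/- embryos from the wild-type mean were set side by side for each group of called genes, with no test. In 34 of the 35 interferon-stimulated genes that rose, embryo 2 lay further from the wild-type mean than embryo 9, with a median fold of 6.61 in embryo 2 and of 4.38 in embryo 9. Within wild-type, embryo 5 was the highest library in 32 of the 35. In the 4 ATF4 targets the median folds were 9.19 and 7.55, and embryo 2 was further in all 4. In the 14 other genes that rose, embryo 2 was further in 7, and the median folds were 2.26 and 2.35. In the 12 genes that fell, embryo 2 was further in 6, at median ratios of 0.311 and 0.344 to the wild-type mean. Embryo 2 is female and embryo 9 male, so that sex and embryo cannot be told apart within this group.

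The same embryos also gave S1 cells, where 1 of 14039 genes passed the threshold (0.00712%), Nprl3 itself, at a log2 fold change of −5.72 (SE 0.43, edgeR adjusted p = 0.0212). The count at S1 was 21 in edgeR with sex, 42 in DESeq2 and 187 in DESeq2 with sex. In the edgeR fit without sex it was 0 without wild-type embryo 0 or 5, and 2 without wild-type embryo 8. At S1 the 14 other genes that rose at S3 had a median log2 fold change of 0.38. The values at S1 were 1.52 for Ndrg2 (SE 0.20), 1.44 for AW011738 (SE 0.56), 1.02 for Car1 (SE 0.28) and −0.29 for Nacad (SE 0.84). Of the genes that fell at S3, Fcna was at −2.01 (SE 0.75) and Marco at −1.87 (SE 0.67) at S1, while Zfp185 was at −0.01 (SE 0.42), Lpl at 0.45 (SE 0.30) and Lyz2 at 1.05 (SE 0.47). The difference between stages was tested as an interaction, in which 1 of 13485 genes passed (0.00742%), again Nprl3, at 5.17 (SE 0.41, edgeR adjusted p = 3.05e-04). For Ndrg2 the interaction had an edgeR adjusted p of 0.143.

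Het embryos at S3, compared with the same 4 wild-type libraries, gave 0 of 11746 genes past the threshold in edgeR (0.0%) and 373 at an unadjusted p under 0.05. Ndrg2 had a log2 fold change of 0.13 in Het, Car1 of 0.39, Cited2 of 0.10 and Pck2 of 0.06. The values in Het were −0.25 for Zfp185, −0.13 for Marco and −0.20 for Ctsf. The median in Het was 0.10 over the 14 genes, −0.23 over the 12 and 0.46 over the 34 that could be tested in Het of the 35 interferon-stimulated genes that rose in Nprl3-/-. Since both comparisons use the same controls, these values are set side by side only.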

How the data were processed

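S3 erythroblasts were sorted by Ter119 and CD71 from E13.5 foetal livers, and their RNA was amplified (SMARTer), enriched for poly(A) and sequenced in pairs. The authors mapped reads to mm39 with STAR 2.7.9 and counted them per gene with featureCounts 1.6.4 on Ensembl release 104, and raw counts were deposited. Counting ignored strand and left out reads with more than 1 place or gene. The table holds 55416 genes, and 4 of its library columns match no sample and were not used.

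Groups came from the titles. Counts were scaled by TMM, genes whose normalized counts averaged 10 or fewer were dropped, and edgeR 4.0.16 in R 4.3.3 (glmQLFit, glmQLFTest, no covariates) was run over all genes left, with Benjamini-Hochberg adjustment and a threshold of 0.05. DESeq2 1.42.0, sex as a covariate, other scalings and filters, and fits that left out each library were alternatives. Single values per library were compared by exact permutation. Scores used log2 of CPM plus 0.5. The scripts were checked on simulated counts. The p-values measure the spread between embryos. Precision is limited by the number of embryos and, for genes of low count, by counting error.

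The genes named are those past the threshold outside the interferon, ATF4 and glycolysis lists, the 3 of smallest p in each other list, and those near Nprl3. A few more members (such as Hbb-y, Hbq1b and Tor1aip1) were named after their values were seen, and a few genes that the rule would name are not reported here. The comparison, its members and the lists were chosen with earlier results of these data known. Symbols and transcript starts came from GENCODE mouse release 39, which matched 54749 gene IDs. Lists count the members in the table. Older symbols were updated in part, and list symbols that matched no gene were left out. In the ATF4 list 58 of 72 symbols matched. Same-numbered libraries of S1 and S3 come from 1 embryo, which was a block in an alternative fit of the interaction.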

Additional observations from a re-analysis of the deposited data

Results flagged for a closer look

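Over 224 values of genes, scores and sums at S3, 9 had a wild-type library whose gap to the nearest of the other 3 took a larger share of the range of the 4 than Dixon's 95% critical value, which chance gives in about 1 group in 20. Wild-type embryo 5 was the highest for Isg15, at 45.2 CPM against 17.7 CPM in the next library (gap 0.916 of the range). Embryo 8 was the highest for Zfp36 (0.936) and Eif5 (0.928). Embryo 1 was the highest for Selenos (0.882) and Hbb-y (0.831) and the lowest for Slc40a1 (0.854). Embryo 0 was the highest for Mcm10 (0.852) and Ppbp (0.860) and the lowest for Ddb2 (0.946).

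The effect of the genotype on Nprl3 counts differed between stages, with a log2 fold change 5.17 higher at S3 than at S1 in the test of the difference itself. These counts also take in transcripts that begin at the enhancers inside Nprl3, so the value does not measure the transcript of the promoter alone.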

How the results depend on the processing

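The numbers of genes higher and lower at S3 (54 and 12) were 136 and 102 in DESeq2, 298 and 365 in DESeq2 with sex, 285 and 262 in edgeR with sex, 219 and 137 without the filter and 84 and 31 with Het libraries in the fit. They were 65 and 11 with the newer quasi-likelihood method, 52 and 12 with DESeq2 size factors, 54 and 12 scaled without globins and 52 and 12 with filterByExpr. With each library left out they ranged from 9 to 41 and from 0 to 5, and genes whose groups do not overlap from 1375 to 3008 and from 1270 to 2941. The cause of these shifts was not tested, except that leaving out a library leaves fewer samples. At S1 the count of 1 was 42 in DESeq2, 187 in DESeq2 with sex, 21 in edgeR with sex, 7 without the filter and 0 to 2 with a library left out. The interaction gave 12 genes in DESeq2 and 1 in each fit with a library left out. The groups at S3 share no embryo number, so pairing applied to the interaction alone, where the fit with the embryo as a replicate block also gave 1 gene.

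None of the 66 genes past the threshold changed direction in the alternatives run. Direction turned without Nprl3-/- embryo 2 in Psmb5 (−0.017 to 0.36 over the libraries left out), Psma3 (−0.060 to 0.34), Ndufs8 (−0.052 to 0.45), mt-Nd6 (−0.72 to 0.17) and Cst3 (−0.10 to 0.25), without wild-type embryo 8 in Cst3 (−0.062), and without Nprl3-/- embryo 9 in Ppbp (−2.37 to 4.57) and in the medians of progenitor genes (−0.16 to 0.30) and of endothelial and stromal markers (−1.999 to 2.21). The 17 progenitor genes otherwise had a median of 0.17. Genes under the limit on counts were not tested.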
